A study of Mus musculus and Homo sapiens with 12 samples.

Results

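Butyrylation at the genes of the 10 class I and class II histone deacetylases, HDAC1 to HDAC10, was examined in peak lists from CUT&Tag, an assay in which an antibody directs a cutting enzyme to a histone mark. The members were the 10 human genes in GENCODE (GRCh38), out of 20033 protein-coding genes, and the 10 mouse genes of the same name in RefSeq (GRCm38), out of 21883. All 10 were found in each species, no member was dropped for low values, and a region counted toward a gene when it lay in the gene or within 5 kb of it. Class I was HDAC1, HDAC2, HDAC3 and HDAC8, class IIa was HDAC4, HDAC5, HDAC7 and HDAC9, and class IIb was HDAC6 and HDAC10.

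The 12 libraries came from CCD841, a cell line from normal human colon labelled as epithelial, and from mouse large intestine. All 4 CCD841 libraries came from cells given 1 mM sodium butyrate (NaBu) for 12 to 16 h, with 2 replicates each for butyryl-lysine (Kbu) at H3K18 and at H4K12, so no untreated cells were compared. The 8 mouse libraries came from male CETP-ApoB-100 transgenic animals, with 2 replicates for each mark. By the labels, the acetyl-lysine (Kac) libraries, H3K18ac and H4K12ac, came from animals on a high fat, high sucrose diet, and the Kbu libraries, H3K18bu and H4K12bu, from the same diet with 5% arabinoxylan. The labels name the mouse tissue as epithelial, while the methods describe the dissected large intestine. The study's methods also give a low fat diet for the control animals, which differs from the labels, and nothing in the lists settles which applies. Acyl group and diet differed together, so their effects cannot be told apart. The labels do not say whether replicates were separate cultures or animals, so the spread between them may be technical.

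Histone deacetylases remove acyl groups from lysines. Class I enzymes are mostly nuclear and work inside corepressor complexes. Class IIa enzymes shuttle between nucleus and cytoplasm, bind MEF2 transcription factors and have weak activity of their own, while class IIb enzymes act largely on proteins other than histones. Butyrate, which gut bacteria make from dietary fiber, is a classical deacetylase inhibitor to which HDAC6 and HDAC10 are less sensitive, and it is also the source of the butyryl group on histones.

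The lists held peaks called at p 0.01 and at most 300000 per library, without a control library. Peaks that overlapped were merged into regions. The CCD841 libraries held 211088 and 229104 regions for H3K18bu and 207129 and 282656 for H4K12bu. Their median pileup, the number of fragments stacked at a peak's summit as solved from the deposited fold and p, was 15 and 12 in the H3K18bu libraries and 15 and 7 in the H4K12bu libraries. The second H4K12bu library thus had the lowest median pileup, and 54.7% of its regions passed q 0.05, against 100% in the other CCD841 libraries. These lists had also reached the limit, but between 0.00768% and 0.0347% of their peaks were tied at the lowest p. Reads mapped per library were not used here. The markers of the labelled cell type were checked first. Of 10 colon epithelial marker genes, 1 (VIL1) had an H3K18bu region of both replicates within 1 kb of its start and 2 (KRT8 and KRT18) had an H4K12bu region, beside 32.7% and 16.3% of all protein-coding genes. KRT8 and KRT18 shared the same H4K12bu regions, with a -log10 p of 5.05 and 4.13, so both counts rest on 1 locus. The numbers were 4 and 2 of 10 mesenchymal markers, 1 and 1 of 5 smooth muscle markers and 1 and 2 of 5 immune markers. EPCAM, CDH1, KRT19, KRT20, CDX1, CDX2 and ELF3 had neither mark there. At the start of the transcript that Ensembl chooses to stand for a gene, 2 epithelial markers, EPCAM and VIL1, had H3K18bu and 1, KRT18, had H4K12bu. The numbers there were 4 and 1 for mesenchymal, 1 and 1 for smooth muscle and 1 and 2 for immune markers, beside 34.1% and 16.7% of all genes. Over the whole window, 8 of 10 epithelial and 9 of 10 mesenchymal markers had an H3K18bu region of both replicates, and 6 and 7 had an H4K12bu region, beside 70% and 71.2% of all genes for the 2 marks. The median number of H3K18bu regions of both replicates per kb was 0.0996 in epithelial, 0.0459 in mesenchymal, 0.109 in smooth muscle and 0.0388 in immune markers. For H4K12bu it was 0.0209, 0.0515, 0.109 and 0.0631, with the epithelial markers lowest.

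H3K18bu was found at the starts of 4 deacetylase genes in both CCD841 replicates, HDAC3, HDAC4, HDAC7 and HDAC6, and H4K12bu at the starts of 2, HDAC2 and HDAC7. The H4K12bu call at HDAC2 was lost at q 0.05, since its replicate 2 region had a -log10 q of 1.26. Here the start was the 5′ end of the gene, and values are those of the highest region of each replicate within 1 kb, which need not be the same region. The 4 of 10 for H3K18bu stood beside 32.7% of all protein-coding genes, and the 2 of 10 for H4K12bu beside 16.3%. These shares are counts over a few genes and were not tested. The classes gave 1 of 4 class I, 2 of 4 class IIa and 1 of 2 class IIb genes for H3K18bu, and 1, 1 and 0 for H4K12bu.

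HDAC6, a cytoplasmic deacetylase of tubulin, had the strongest start-site region of the family. Its H3K18bu region reached a -log10 p of 20.8 with a pileup of 23 in replicate 1, and 25.1 with a pileup of 25 in replicate 2. It covered chrX:48801597-48802579 and included exon 1 of the canonical transcript, which is the one Ensembl chooses to stand for a gene. H4K12bu was listed there in replicate 1 alone, at 5.11. HDAC6 therefore had a start strongly marked by H3K18bu, while that single region was all the H3K18bu it had in its 33.6 kb window.

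HDAC3, the catalytic subunit of the NCoR and SMRT corepressor complexes, carried H3K18bu at its start at a -log10 p of 8.24 in replicate 1 and 6.75 in replicate 2. No H4K12bu region was listed within 1 kb in either replicate. The HDAC3 window also takes in parts of DIAPH1, RELL2 and FCHSD1, so its regions cannot be assigned to HDAC3 alone, and MARCKSL1, G6PC3 and ERAS likewise reach into the windows of HDAC1, HDAC5 and HDAC6. A protein-coding gene without a symbol reaches into the HDAC8 window. Other annotated genes, none of them protein-coding, numbered 7 in the HDAC4 window, 5 in that of HDAC9 and 1 in that of HDAC2. HDAC4 carried H3K18bu at 9.43 and 12.1, and H4K12bu in replicate 1 alone, at 7.03. HDAC7 was the one member with both marks at its gene start in both replicates. The region common to both replicates had H3K18bu at 7.69 and 5.76, and the H4K12bu regions common to both had 6.16 and 4.95 and, nearer the start, 21.1 and 4.24. The highest H3K18bu regions of the single replicates, at 13.8 and 6.88, did not overlap each other.

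HDAC1, a subunit of the Sin3, NuRD and CoREST complexes, had start-site regions of replicate 1 alone, at 9.44 for H3K18bu and 9.27 for H4K12bu. HDAC5 and HDAC10 had an H3K18bu region there in replicate 2 alone, at 6.79 and 5.996. HDAC8, which deacetylates the cohesin subunit SMC3, and HDAC9 had none of either mark at the 5′ end of the gene. HDAC2, the close relative of HDAC1, had H4K12bu at 6.13 and 3.77, in regions that did not overlap each other, and H3K18bu in replicate 2 alone, at 7.15.

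**Figure D1:**
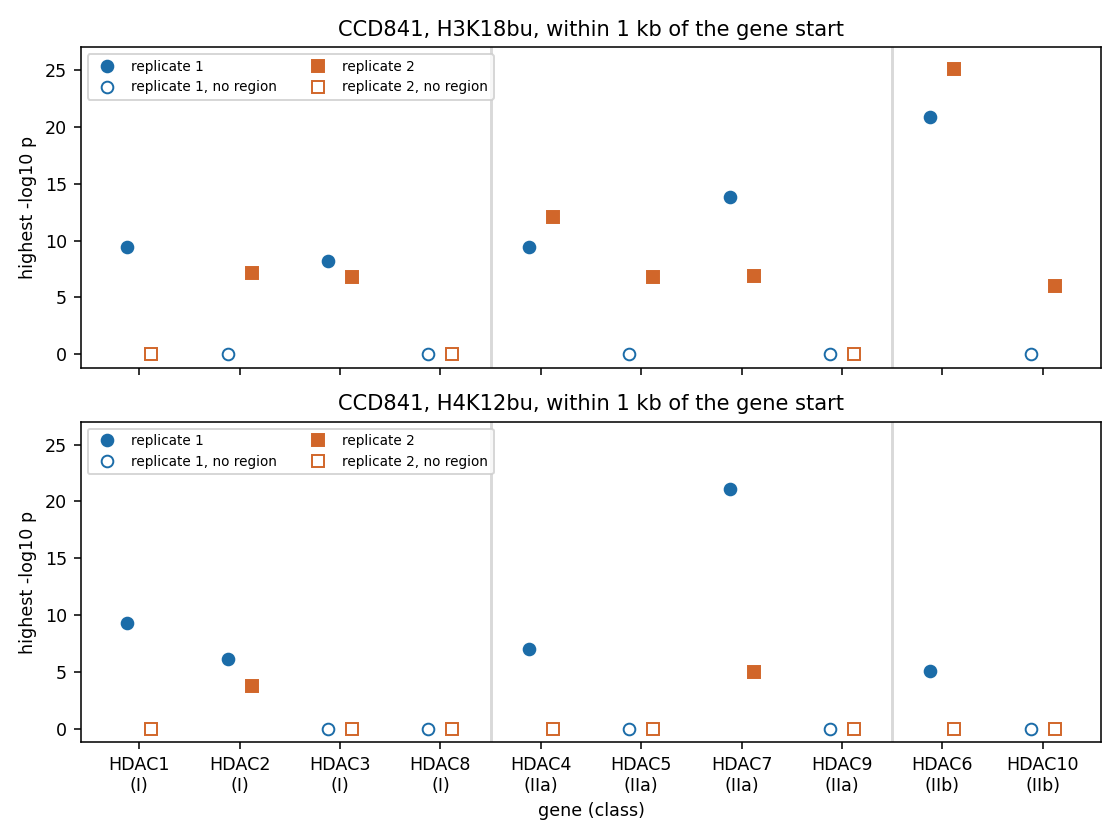
Highest -log10 p of a merged region within 1 kb of the gene start (y axis, linear) for each deacetylase gene (x axis, class in brackets), for H3K18bu above and H4K12bu below. Filled points are regions of replicate 1 (circles) and replicate 2 (squares), and open points at 0 mark libraries with no region. HDAC6 stands highest for H3K18bu, at 20.8 and 25.1, and HDAC7 alone has filled points for both marks in both replicates.

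The choice of start changed calls at HDAC2 and HDAC9, and at HDAC7 the values alone. Their canonical transcripts begin far inside the gene, 40.2 kb from the 5′ end in HDAC2, 13.2 kb in HDAC7 and 409 kb in HDAC9. At canonical starts, H3K18bu was present in both replicates at 6 of 10 members, which were HDAC2, HDAC3, HDAC4, HDAC7, HDAC9 and HDAC6, beside 34.1% of all genes. At the HDAC2 canonical start the region with the highest weaker value had 9.58 and 12.1, and a neighbouring region 12.96 and 5.72. At the canonical start of HDAC7 H3K18bu had 17.98 and 17.6, and at that of HDAC9 11.9 and 8.11. H4K12bu at canonical starts was present in both replicates at 1 of 10, HDAC7, at 5.56 and 5.87, beside 16.7% of all genes. This definition was added after the data were seen.

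The start-region sequences below, read from GRCh38 on the strand of each gene, let the marked starts of HDAC3, HDAC4 and HDAC7 be compared with that of HDAC1, which lacked a region common to both replicates. For the marked genes each is the longest stretch of the H3K18bu region that lies outside every annotated exon. For HDAC1 it is the 250 bases before the start, so the stretches differ in length and in distance from the start. They lie at chr5:141636850-141636949, chr2:239401166-239401401, chr12:47833640-47833886 and chr1:32291833-32292082. The region at HDAC6 has no stretch longer than 4 bases outside annotated exons and is not shown. Capitals mark the GC box GGGCGG, the CCAAT box and the AP-1 type motif TGANTCA on either strand, and TATAAA was also searched.
HDAC3: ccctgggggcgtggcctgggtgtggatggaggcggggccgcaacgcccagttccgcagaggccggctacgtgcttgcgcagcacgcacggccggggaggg
HDAC4: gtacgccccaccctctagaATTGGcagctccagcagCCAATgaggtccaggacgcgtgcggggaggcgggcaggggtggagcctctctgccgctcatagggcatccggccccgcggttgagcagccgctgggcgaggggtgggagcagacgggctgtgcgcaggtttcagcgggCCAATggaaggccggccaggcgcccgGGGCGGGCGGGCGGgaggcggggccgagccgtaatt
HDAC7: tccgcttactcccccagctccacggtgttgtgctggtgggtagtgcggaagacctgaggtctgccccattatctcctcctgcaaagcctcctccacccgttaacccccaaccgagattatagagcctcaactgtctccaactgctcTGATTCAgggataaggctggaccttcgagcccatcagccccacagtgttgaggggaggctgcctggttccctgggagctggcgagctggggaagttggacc
HDAC1: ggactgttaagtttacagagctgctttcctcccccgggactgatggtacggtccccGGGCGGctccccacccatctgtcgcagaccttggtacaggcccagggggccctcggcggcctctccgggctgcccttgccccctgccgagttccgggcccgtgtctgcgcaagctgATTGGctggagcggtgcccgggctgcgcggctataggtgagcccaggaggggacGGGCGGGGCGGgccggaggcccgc

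The HDAC4 stretch held 3 overlapping copies of GGGCGG and 3 of CCAAT, with 23 CpG in 236 bases. HDAC1 held 3 copies of GGGCGG, 1 of CCAAT and 21 CpG in 250 bases. HDAC9, with no region of either mark at its gene start, held 4 copies of GGGCGG and 37 CpG in its upstream 250 bases. HDAC3 held none of these motifs in 100 bases and 11 CpG, while its whole H3K18bu start region of 248 bases, exons included, held 3 copies of GGGCGG and 27 CpG, and HDAC7 held 1 TGANTCA and 7 CpG in 247 bases. Over the 250 bases upstream of all 20033 human gene starts, 49% held GGGCGG, 33.3% CCAAT, 10% TATAAA and 5.46% TGANTCA, and the median number of CpG was 14.

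Across whole genes, class IIa held most of the regions. Regions found in both replicates numbered 96 for H3K18bu over the 10 members, of which 83 were in class IIa, 12 in class I and 1 in class IIb. For H4K12bu they numbered 139, of which 120 were in class IIa, 13 in class I and 6 in class IIb. HDAC4 alone held 42.7% of the H3K18bu and 59.7% of the H4K12bu regions. The members range in length from 6.22 to 915 kb, so the number per kb of gene and flanks was compared next.

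Per kb, the median of the class IIa genes was 0.163 H3K18bu regions (range 0.0713 to 0.265, mean of the replicates for each gene), against 0.0533 in class I (0.0291 to 0.181), 0.0303 in class IIb (0.0298 to 0.0308) and 0.0849 over all protein-coding genes. For H4K12bu the medians were 0.269 in class IIa (0.0632 to 0.389), 0.169 in class I (0.0927 to 0.176), 0.226 in class IIb (0.185 to 0.268) and 0.137 over all genes. The H3K18bu range of class I overlapped those of class IIa and class IIb, and the H4K12bu range of class IIa overlapped both others. The genes within class I and class IIa differed widely for H3K18bu, and HDAC4 and HDAC7 set the upper values of class IIa. Counted as regions of both replicates per kb, the H4K12bu medians were 0.149 in class IIa and 0.0421 in class I. They were 0.121 in class IIb and 0.0468 over all genes, so class I lay below all genes by that count. For H3K18bu they were 0.0827 in class IIa, 0.0232 in class I, 0.0149 in class IIb and 0.0373 over all genes. Genes are not replicates, and the classes were not tested against each other.

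**Figure D2:**
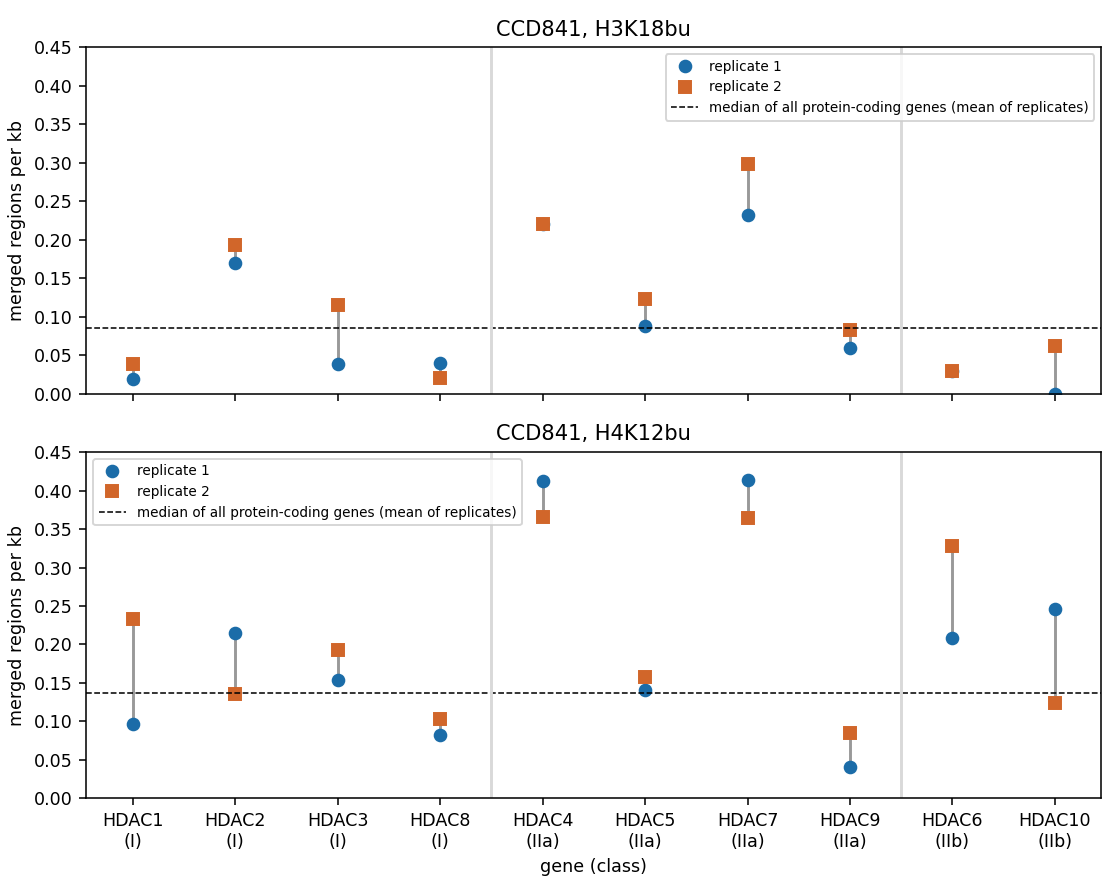
Merged regions per kb of gene and flanks (y axis) for each deacetylase gene (x axis, class in brackets), for H3K18bu above and H4K12bu below. Circles are replicate 1, squares replicate 2, bars join the replicates of a gene, and the dashed line is the median of all protein-coding genes, 0.0849 for H3K18bu and 0.137 for H4K12bu. HDAC7 and HDAC4 lie highest for both marks, and HDAC8 and HDAC9 lie below the line in both replicates for both marks.

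HDAC4, a class IIa enzyme that represses MEF2 targets, spans 353 kb at chr2:239048168-239401654. Its window held 80 and 80 H3K18bu regions and 150 and 133 H4K12bu regions in the replicates. The H3K18bu density was 0.220 and 0.220 per kb, and the H4K12bu density 0.413 and 0.366. The replicates lay close together for both marks. In regions of both replicates per kb, HDAC4 stood above 88.9% of all protein-coding genes for H3K18bu and above 98.8% for H4K12bu.

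HDAC7, known from endothelial and thymocyte biology, is a much shorter gene of 50.4 kb. It held 14 and 18 H3K18bu regions and 25 and 22 H4K12bu regions, or 0.232 and 0.298 per kb for H3K18bu and 0.414 and 0.364 for H4K12bu. Its density in both replicates stood above 95.2% of genes for H3K18bu and above 99.5% for H4K12bu. HDAC4 and HDAC7 were thus near each other in H4K12bu density in each replicate, although HDAC4 is the longer gene. Of 5 other annotated genes that reach into the HDAC7 window, 1 is protein-coding, SLC48A1.

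HDAC9, a class IIa gene of 915 kb that also gives rise to short forms without the catalytic domain, had many regions but a low density. It held 55 and 77 H3K18bu regions and 38 and 79 H4K12bu regions, or 0.0594 and 0.0832 per kb for H3K18bu and 0.0411 and 0.0854 for H4K12bu. As a ratio of regions per kb, the H4K12bu replicates differed more here than at HDAC4 or HDAC7, but not as a plain difference or by other measures. Per 10000 regions of the library, the H4K12bu shares were 1.83 and 2.79 at HDAC9. They were 7.24 and 4.71 at HDAC4 and 1.21 and 0.778 at HDAC7. The bases covered by H4K12bu regions per kb were 14.1 and 15.2 at HDAC9. They were 153 and 86.7 at HDAC4 and 108 and 55.9 at HDAC7, so by covered bases the HDAC9 replicates lay closest. HDAC5, studied in heart and skeletal muscle, held 5 and 7 H3K18bu and 8 and 9 H4K12bu regions, near the median of all genes for both marks in density. HDAC5 had 0.0878 and 0.123 H3K18bu and 0.140 and 0.158 H4K12bu regions per kb.

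In class I, HDAC2 had the highest H3K18bu density. It held 15 and 17 H3K18bu regions, 0.170 and 0.193 per kb, against 1 and 2 at its close relative HDAC1, 0.0194 and 0.0388 per kb. In H4K12bu the mean density was close at HDAC2, HDAC3 and HDAC1, at 0.176, 0.173 and 0.165 per kb, from 19 and 12 regions at HDAC2 and 5 and 12 at HDAC1. HDAC1 had no H3K18bu region in both replicates, while HDAC2 had 9, of which 7 lay in the 40.2 kb between its 5′ end and the start of its canonical transcript. HDAC3 held 1 and 3 H3K18bu and 4 and 5 H4K12bu regions. HDAC8 held 10 and 5 H3K18bu regions and 21 and 26 H4K12bu regions over 244 kb, which were low densities for both marks at 0.0394 and 0.0197 and at 0.0828 and 0.103 per kb.

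The class IIb genes had little H3K18bu. HDAC6 held 1 and 1 H3K18bu regions against 7 and 11 H4K12bu regions. HDAC10, a short gene of 6.22 kb whose product deacetylates polyamines, held 0 and 1 H3K18bu and 4 and 2 H4K12bu regions. Its 2 H4K12bu regions of both replicates lay in the upstream flank, where TUBGCP6 and MAPK12 share the window. These counts were small, and a difference between class IIb and other genes was not tested.

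Taken per gene, 8 of 10 members had an H3K18bu region of both replicates somewhere in the window, the exceptions being HDAC1 and HDAC10, beside 70% of protein-coding genes. All 10 had an H4K12bu region of both replicates, beside 71.2%. To compare the marks, the regions of each gene were also counted per 10000 regions of the library. On that scale both H4K12bu replicates lay above both H3K18bu replicates at 7 members, beside 43.9% of all genes, and the marks overlapped at HDAC2, HDAC7 and HDAC9. The reverse order, found at 21% of all genes, was not seen at any member. With 2 libraries against 2 an exact permutation test cannot go below p = 0.333, so none was run. The ratio of the mean shares, H4K12bu over H3K18bu, ran from 0.776 at HDAC9 to 7.99 at HDAC6. The HDAC6 value rests on 1 H3K18bu region in each replicate.

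Most regions lay inside introns, as they did over all protein-coding genes. The share in introns was 79.2% for H3K18bu and 76.3% for H4K12bu, beside 72.9% and 71.8% of the regions at all genes, and the share that overlapped an exon was 11.5% and 18.7%, beside 11.5% and 19.5%. Of the 96 H3K18bu regions, 76 lay in introns, 11 overlapped an exon of some transcript, 4 lay within 1 kb of the gene start and 5 in a flank. Of the 139 H4K12bu regions, 106 lay in introns, 26 overlapped an exon, 2 lay at a start, both at HDAC7, and 5 in a flank. HDAC4 and HDAC9 carried most of the intronic regions, with 36 of 41 and 24 of 30 H3K18bu regions and 76 of 83 and 16 of 17 H4K12bu regions in introns, while at HDAC7 5 of 16 H4K12bu regions lay in introns and 8 overlapped an exon. The share at a start was 4.17% for H3K18bu and 1.44% for H4K12bu, beside 8.995% and 3.81% of the regions at all protein-coding genes. Among the H4K12bu regions, 4 of 4 at HDAC6, 2 of 2 at HDAC3, 3 of 4 at HDAC5 and 0 of 2 at HDAC10 overlapped an exon.

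The marks shared part of their regions. Of the H3K18bu regions at the members, 46.9% overlapped an H4K12bu region of both replicates, beside 40.9% at all genes, and of the H4K12bu regions 33.1% overlapped an H3K18bu region, beside 39.4%. The overlap was carried by HDAC4, where 28 of 41 H3K18bu regions overlapped H4K12bu, by HDAC9 with 10 of 30, HDAC7 with 5 of 9 and HDAC2 with 2 of 9. No region overlapped the other mark at the other 6 members.

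HDAC4 and HDAC9 were marked over different parts of the gene. At HDAC4 the 41 H3K18bu regions fell 13, 14, 6 and 5 into 4 equal parts of the gene counted from its start, with 3 past its end. The 83 H4K12bu regions fell 21, 18, 22 and 21, with 1 past its end. More H3K18bu regions lay toward the start of HDAC4 than toward its end, while the H4K12bu counts were close in all 4 parts. At HDAC9 the first of 4 parts, 229 kb long, held no H3K18bu region and 1 H4K12bu region. The other 30 H3K18bu regions fell 13, 9 and 8 into the later parts and the other 16 H4K12bu regions 4, 10 and 2. The first H3K18bu region lay 287 kb from the HDAC9 gene start. HDAC2 held 3, 3, 3 and 0 H3K18bu regions, and the last part, at the 3′ end, had none.

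**Figure D3:**
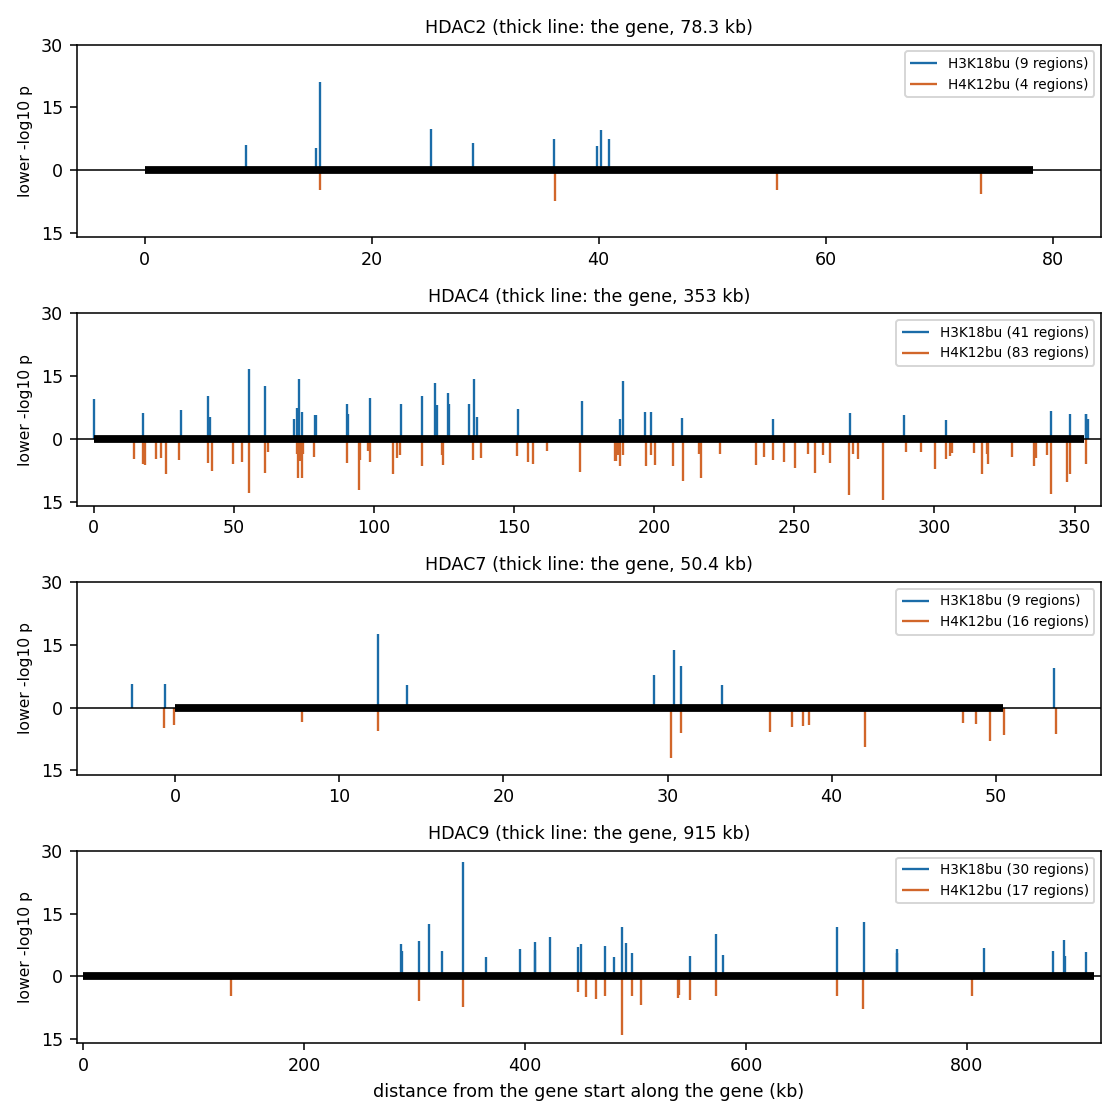
Regions found in both CCD841 replicates along HDAC2, HDAC4, HDAC7 and HDAC9, by distance of the region's centre from the gene start in kb (x axis, a scale of its own for each gene). Line heights give the lower -log10 p of the replicates (y axis), upward for H3K18bu and downward for H4K12bu, and the thick line is the gene. HDAC9 has no H3K18bu region before 287 kb, and HDAC4 has 41 H3K18bu and 83 H4K12bu regions along its length.

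The strongest region of any member was an H3K18bu region of HDAC9, with a -log10 p of 36.4 and 27.5 and a pileup of 45 and 35. It lay in an intron, before the canonical transcript begins, and overlapped an H4K12bu region of 24.5 and 7.35. A further HDAC9 region at chr7:18792944-18793858 overlapped exon 17, with H3K18bu at 25.3 and 13.1 and H4K12bu at 21.6 and 7.91. At HDAC2 the strongest H3K18bu region, chr6:113995628-113996039, reached 22.1 and 21.2 in an intron upstream of the canonical transcript and overlapped H4K12bu. At HDAC4 the strongest H3K18bu region, chr2:239345407-239347129 in intron 2, reached 24.8 and 16.7, and the strongest H4K12bu region, chr2:239119375-239120342 in intron 12, reached 18.7 and 14.5. At HDAC7 the strongest H3K18bu region, chr12:47820667-47820924, reached 17.98 and 17.6, and the strongest H4K12bu region, chr12:47802514-47803275 in intron 1, reached 26.7 and 12.1. Regions were ordered by the weaker replicate.

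The sequences of the strongest HDAC2, HDAC4 and HDAC7 regions follow from the forward strand of GRCh38, so that the marked stretches can be seen. Each is the central 300 bases, or the whole region where it is shorter. They lie at chr6:113995684-113995983, chr2:239346118-239346417, chr2:239119709-239120008, chr12:47820667-47820924 and chr12:47802745-47803044. Capitals mark the same motifs.
HDAC2 H3K18bu: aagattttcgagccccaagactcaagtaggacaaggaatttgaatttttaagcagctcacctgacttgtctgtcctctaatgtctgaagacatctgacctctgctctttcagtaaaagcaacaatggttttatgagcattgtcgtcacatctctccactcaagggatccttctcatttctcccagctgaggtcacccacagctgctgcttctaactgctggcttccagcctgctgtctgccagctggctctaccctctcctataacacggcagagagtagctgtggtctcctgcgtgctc
HDAC4 H3K18bu: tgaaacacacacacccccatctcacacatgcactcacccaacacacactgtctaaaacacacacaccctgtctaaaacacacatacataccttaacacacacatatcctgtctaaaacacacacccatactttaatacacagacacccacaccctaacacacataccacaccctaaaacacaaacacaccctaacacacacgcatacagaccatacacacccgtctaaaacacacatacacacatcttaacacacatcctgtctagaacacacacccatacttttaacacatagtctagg
HDAC4 H4K12bu: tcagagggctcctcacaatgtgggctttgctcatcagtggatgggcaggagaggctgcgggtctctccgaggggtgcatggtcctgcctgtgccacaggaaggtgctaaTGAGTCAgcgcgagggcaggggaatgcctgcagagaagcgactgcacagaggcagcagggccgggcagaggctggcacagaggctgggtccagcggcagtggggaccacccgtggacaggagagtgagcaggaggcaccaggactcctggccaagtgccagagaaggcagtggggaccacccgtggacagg
HDAC7 H3K18bu: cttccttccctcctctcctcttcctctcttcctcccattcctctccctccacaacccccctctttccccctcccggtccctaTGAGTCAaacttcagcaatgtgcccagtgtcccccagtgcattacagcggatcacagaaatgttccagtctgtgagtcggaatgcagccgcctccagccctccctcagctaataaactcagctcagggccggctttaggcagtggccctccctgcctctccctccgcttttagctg
HDAC7 H4K12bu: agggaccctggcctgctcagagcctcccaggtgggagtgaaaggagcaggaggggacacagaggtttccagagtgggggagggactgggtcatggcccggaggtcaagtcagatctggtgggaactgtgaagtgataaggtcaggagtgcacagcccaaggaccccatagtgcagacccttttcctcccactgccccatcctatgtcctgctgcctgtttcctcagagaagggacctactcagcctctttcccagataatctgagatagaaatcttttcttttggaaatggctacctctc

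TGANTCA appeared once in the HDAC4 H4K12bu window and once in the HDAC7 H3K18bu region. Over all regions of both replicates, 14.8% of H3K18bu and 11.7% of H4K12bu central 300-base windows held it. The HDAC4 H3K18bu window consisted largely of a run of short repeats rich in alternating A and C. Repeats bear on peak lists because reads from them can be placed in more than 1 location, so each region was split into 25-base words and each word was counted on both strands of the genome. In the HDAC4 H3K18bu region 19.4% of the words occurred more than once, the most frequent 1536 times. The share was 10.4% in the HDAC4 H4K12bu region and 40.3% in the strongest HDAC9 H3K18bu region, where the most frequent word occurred 22874 times. At the HDAC2 and both HDAC7 regions shown, every word was unique. Over all members, 69 of 96 H3K18bu regions and 100 of 139 H4K12bu regions held no repeated word, and 3 and 2 regions had repeated words over more than 50% of their length.

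The other deacetylases and the partners of the members were counted as lists drawn up by role. Of 30 subunits of the corepressor complexes, 24 had an H3K18bu and 28 an H4K12bu region of both replicates in the window, and 14 and 3 had one at the start. Of 9 partners of class IIa enzymes, which are MEF2 factors, 14-3-3 proteins and the kinases CAMK2D and PRKD1, 9 and 8 had one in the window and 4 and 0 at the start. Of the 8 other deacetylases, HDAC11 and SIRT1 to SIRT7, 5 and 7 had one in the window and 2 and 3 at the start. The background shares are those given above for all protein-coding genes.

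The strongest H3K18bu start regions of these lists were at YWHAG, at 15.6 and 15.2, at GATAD2A, at 15.6 and 15.1, and at YWHAB, at 14.9 and 20.4. YWHAG and YWHAB encode 14-3-3 proteins, which hold phosphorylated class IIa deacetylases in the cytoplasm, and GATAD2A is a NuRD subunit. All 3 lay below HDAC6 in the first replicate and in the second. The strongest H4K12bu start regions were at ARID4A, a Sin3 complex subunit, at 6.13 and 5.43, at CHD4, the NuRD remodelling ATPase, at 7.09 and 5.30, and at SIRT7, a nucleolar sirtuin, at 9.98 and 4.51. HDAC11, chosen for mention after its values were seen, carried both marks at its start in both replicates like HDAC7, with H3K18bu at 12.3 and 7.37 and H4K12bu at 4.92 and 3.67, and its density of regions in both replicates stood above 99.4% and 98.5% of genes. SIRT4 and SAP30 had no region of both replicates for either mark.

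In the mouse libraries the peaks held far fewer fragments than in CCD841. The Kbu lists held 60776 and 50645 regions for H3K18bu and 50909 and 96332 for H4K12bu, and between 89.2% and 91.4% of their peaks had a pileup of 1. The Kac lists held 298592 and 298390 regions for H3K18ac and 299480 and 297745 for H4K12ac, so each had been cut by the 300000 limit. The cut went through peaks of identical p. Peaks tied at the lowest p of the list made up 72.1% and 52.0% of the H3K18ac peaks and 52.8% and 12.8% of the H4K12ac peaks. The tied peaks that were kept did not cover the genome evenly but lay on 19 and 6 chromosomes for H3K18ac and on 5 and 1 for H4K12ac. Chromosome 1, with Hdac4, and chromosomes 10, 11 and 12, with Hdac2, Hdac5 and Hdac9, received tied peaks in 3 or more Kac lists, while the X chromosome, with Hdac6 and Hdac8, received none. The Kac region counts and shares at the members are therefore given with the tied peaks and without them. The setting without them was chosen after seeing the data. In each Kac list the peaks tied at the lowest p made up the same share as those with a pileup of 1. Without the ties, Kac peaks with a pileup of at least 2 are thus set against Kbu lists mostly of pileup 1. That is not a comparison of like with like.

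**Figure D4:**
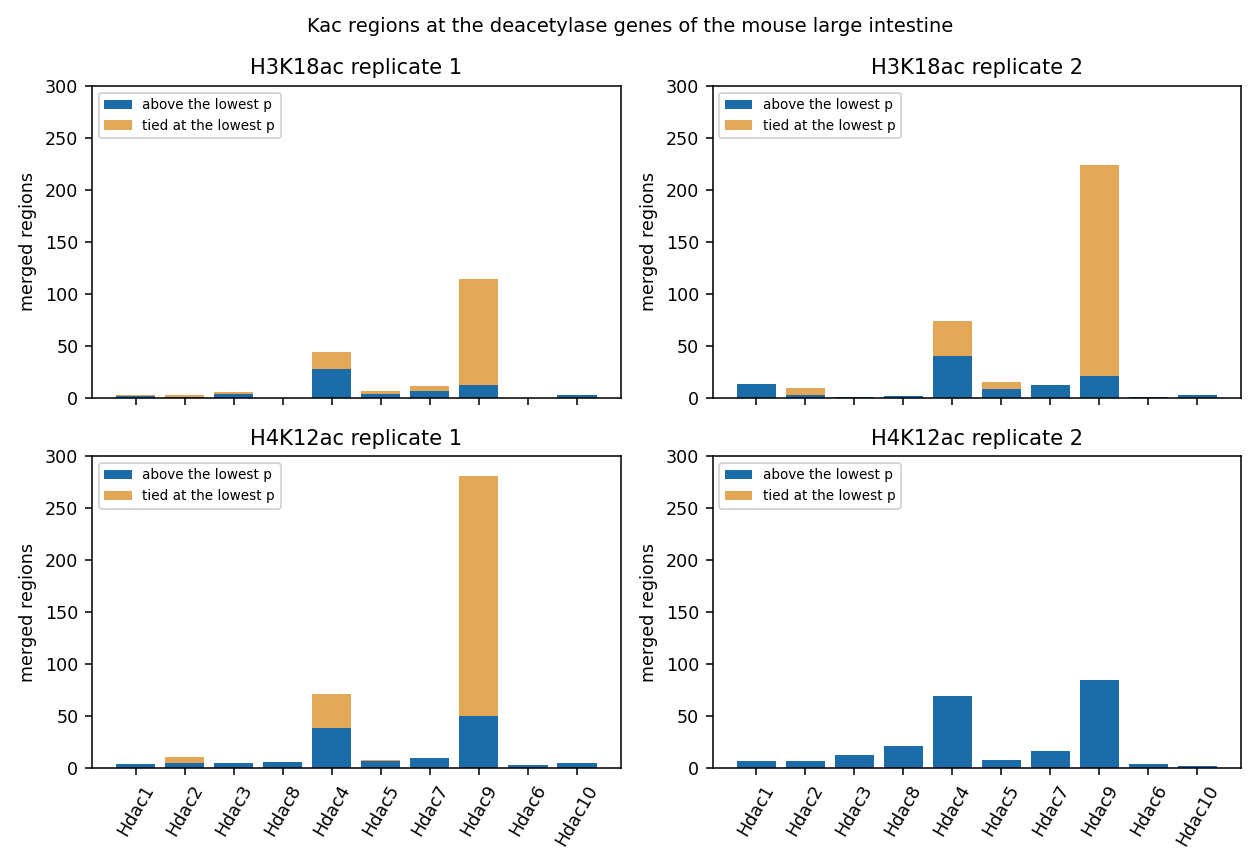
Merged regions at each mouse deacetylase gene (x axis) in the 4 Kac libraries (y axis, number of regions), split into regions above the lowest p of the list and regions tied at it. Tied regions make up 102 of 114, 203 of 224 and 231 of 281 regions at Hdac9 in H3K18ac replicates 1 and 2 and H4K12ac replicate 1, and none of 85 in H4K12ac replicate 2.

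By markers, 7 of 10 colon epithelial genes, with the tied peaks, had an H3K18bu and 4 of 10 an H4K12bu region of both mouse replicates within 1 kb of a gene end, beside 10.9% and 22.6% of all genes. Of 10 mesenchymal markers 1 and 0 had one, and none of 5 smooth muscle and none of 5 immune markers had one for either Kbu mark. For H3K18ac and H4K12ac the numbers were 6 and 4 for epithelium, 2 and 2 for mesenchymal cells, 1 and 1 for smooth muscle and 3 and 0 for immune cells, beside 35% and 38.3% of all genes, all with the tied peaks. Without them the numbers were 6 and 4, 1 and 1, 0 and 1, and 1 and 0, beside 24.3% and 35.9%. Over the whole window, H3K18ac markers went from 9 to 8 for epithelium, 4 to 2 for mesenchymal cells, 3 to 0 for smooth muscle and 4 to 1 for immune cells without the ties. The H4K12ac markers went from 6 to 6, 6 to 5, 3 to 3 and 1 to 1 in the same order. All genes went from 52.2% to 39.7% for H3K18ac and from 55.1% to 52.2% for H4K12ac. In that order and with the tied peaks, 8, 1, 0 and 0 markers had an H3K18bu region in the window, beside 17.7% of all genes. For H4K12bu the numbers were 5, 2, 0 and 0, beside 29.7%. Fewer cells of a type and less of a mark per cell cannot be told apart in a whole tissue.

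Few regions of the deacetylase genes were found in both mouse replicates. They numbered 5 for H3K18bu and 7 for H4K12bu. For H3K18ac they numbered 33 with the tied peaks and 10 without, and for H4K12ac 44 and 31. H3K18bu regions of both replicates were at 3 members, Hdac2, Hdac4 and Hdac7, beside 17.7% of all genes, and H4K12bu regions at 5, Hdac2, Hdac8, Hdac4, Hdac7 and Hdac6, beside 29.7% (17.7% and 29.6% without the ties, with the same members). H3K18ac regions were at 5 members with and without the ties, beside 52.2% and 39.7%, and H4K12ac regions at 9 both ways, beside 55.1% and 52.2%. Hdac1 had none for any of the 4 marks. By the gene-end count used for the markers, in which a region of each replicate lies within 1 kb of the same end and the regions need not overlap, H3K18bu was at 2 of 10 members, Hdac2 and Hdac4, beside 10.9% of all genes. H4K12bu was at 3, Hdac2, Hdac6 and Hdac10, beside 22.6%. H3K18ac was at 2, Hdac2 and Hdac10, beside 35% of all genes with the ties and 24.3% without. H4K12ac was at 6 with the ties, beside 38.3%, and at 5 without, where Hdac4 was lost, beside 35.9%. The Kbu members were the same without the ties.

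Mouse Hdac2 had the one place in the family where all 4 marks met. At the gene end on chromosome 10 that holds its annotated start, H3K18bu covered 36974173 to 36974539 with a pileup of 2 and 1, and H4K12bu covered 36973714 to 36974670 with a pileup of 2 and 4. H3K18ac covered 36974106 to 36974578 with a pileup of 4 and 5, and H4K12ac covered 36973643 to 36974802 with a pileup of 7 and 10. The Kac regions passed q 0.05 in both replicates and the Kbu regions did not. None of these 4 regions was tied at the lowest p. In CCD841 the HDAC2 canonical start carried H3K18bu in both replicates as well, and H4K12bu in replicate 1 alone.

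Other members had regions at a listed start, at a gene end or elsewhere in the window. At the start of Hdac6 an H4K12bu region with a pileup of 1 and 1 lay at chrX:7948068-7948387, next to an H4K12ac region with a pileup of 3 and 5 at chrX:7947727-7948039. At Hdac7 an H3K18bu region with a pileup of 2 and 1 at an internal start, chr15:97831805-97832111, overlapped H4K12ac at 3 and 5. At Hdac10 the H4K12ac regions at the gene end had a pileup of up to 3 in replicate 1 and up to 6 in replicate 2. Hdac5 had 2 H3K18ac and 2 H4K12ac regions with the ties, 1 and 2 without, and none for Kbu, and none of these lay at a listed start or gene end. Hdac3 had 2 at a gene end, for H4K12ac alone.

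Inside Hdac4, H3K18bu was found in both replicates in 2 places and H4K12bu in 3, none at the listed start, and 5 of these 5 regions had a pileup of 1 in at least 1 replicate. The Kac marks were found at 8 places for H3K18ac and 15 for H4K12ac, or 5 and 12 without the ties. Hdac9 had no Kbu region in both replicates, against 20 H3K18ac and 15 H4K12ac regions, which fell to 2 and 6 without the ties. In density without ties, the mean of the replicates was 0.0560 and 0.0722 regions per kb at Hdac4 for H3K18bu and H4K12bu, against 0.162 and 0.113 at Hdac7 and 0.00625 and 0.0171 at Hdac9. Hdac9 stood above 34.3% and 29.0% of genes and Hdac7 above 96.1% and 80.8%. The highest of the members by this measure was Hdac10, at 0.162 and 0.292 per kb, in a window of 15.4 kb with 1 to 5 regions a library. Its Kbu regions of one replicate did not overlap those of the other, though both H4K12bu replicates had a region within 1 kb of the same gene end.

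Kbu and Kac were then compared by the share of each library's regions that lay at a gene, per 10000 regions, since the lists differ in length. Over all listed peaks the 4 Kbu libraries lay above the 4 Kac libraries at 3 members, Hdac5, Hdac7 and Hdac10, beside 11.1% of all genes, and below them at 1, Hdac9, beside 3.86%. The windows of Hdac5, Hdac7 and Hdac10 also take in parts of G6pc3, of Slc48a1, and of Tubgcp6 and Mapk12, so their regions cannot be assigned to the members alone. Each of the 4 reached the smallest p that a two-sided exact permutation test of 4 against 4 allows, 0.0286, and after Benjamini-Hochberg adjustment over 20561 genes the exact test gave 0.191. No gene of the genome passed an adjusted p of 0.05, and 3070 had an unadjusted p of 0.0286.

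At Hdac5 the H3K18bu replicates had shares of 0.823 and 0.790, and the H4K12bu replicates 0.982 and 0.727. The H3K18ac replicates had 0.201 and 0.503, and the H4K12ac replicates 0.267 and 0.269. The means were 0.830 ± 0.109 and 0.310 ± 0.132 (SD, n = 4 each). Each SD spans both residues as well as both replicates, so it is not the spread of replicates alone. Without the ties the Kac shares were 0.485, 0.561, 0.496 and 0.309, and all 4 still lay below the lowest Kbu share, 0.730. That setting sets Kac peaks with a pileup of at least 2 against Kbu peaks with a pileup of 1. The difference was 0.370 without the ties, with an exact permutation p of 0.0286 and an adjusted p of 0.544. Without the ties, these shares rest on 4 to 7 Kbu and 4 to 8 Kac regions a library, and every Kbu region at Hdac5 had a pileup of 1. Over peaks with a pileup of at least 2 the difference was therefore -0.463, a comparison with 0 in every Kbu library that is no test. With the same number of strongest regions from each library the difference was 0.444, with an exact permutation p of 0.200. That setting took regions of equal p in chromosome order and kept the list of H3K18bu replicate 2 whole. Its values thus carry a limit like that of the ties. With flanks of 10 kb in place of 5 kb the groups overlapped at Hdac5, with a difference of 0.494 and an exact permutation p of 0.0571.

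At Hdac7 the H3K18bu shares were 1.97 and 1.58 and the H4K12bu shares 1.38 and 0.727, against Kac shares between 0.334 and 0.537. Without the ties the Kac shares were 0.709 to 0.842 in 3 libraries and 0.617 in H4K12ac replicate 2. The groups then overlapped, since H4K12bu replicate 2 stood at 0.730, and the difference of 0.694 had an exact permutation p of 0.0571. At Hdac10 the mean difference went from 0.431 to 0.290 and the groups overlapped without the ties. With the same number of strongest regions from each library the difference was 0.444 at Hdac7 and 0.346 at Hdac10. The exact permutation p was then 0.114 and 0.229, with the same limits as at Hdac5.

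At Hdac9 the direction was the opposite, and whether the groups overlapped changed with the peaks that entered. With all peaks the H3K18bu shares of 1.15 and 0.790 and the H4K12bu shares of 1.57 and 2.28 lay below 3.82 and 7.51 in H3K18ac and 9.38 and 2.85 in H4K12ac. Without the ties the H3K18ac shares dropped to 1.45 and 1.47, and H4K12ac stood at 3.54 and 3.28. The H3K18ac libraries then lay within the range of the Kbu libraries, and the H4K12ac libraries lay above it. The mean difference, Kbu minus Kac, went from -4.44 to -0.98, with an exact permutation p of 0.229 without the ties. From the same number of strongest regions of each library it was -1.38, with an exact permutation p of 0.257 and the limits given at Hdac5. Over peaks with a pileup of at least 2 the difference was -2.44, and at q 0.05 it was -2.35. All Kbu regions at Hdac9 had a pileup of 1 and none passed q 0.05, so both are comparisons with 0 in every Kbu library and no test.

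At Hdac4 the H3K18bu shares were 3.13 and 2.37, the H4K12bu shares 3.14 and 2.49, the H3K18ac shares 1.47 and 2.48 and the H4K12ac shares 2.37 and 2.32. Without the ties the Kac shares became 3.39, 2.81, 2.76 and 2.66 and overlapped the Kbu shares. The difference turned from 0.622 to -0.117. At Hdac1, Hdac2, Hdac3, Hdac8 and Hdac6 the groups overlapped both ways, with mean shares between 0.0670 and 0.427. Without the ties, 1 member, Hdac5, had all Kbu above all Kac, beside 3.37% of genes, and none had them below, beside 1.88%.

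**Figure D5:**
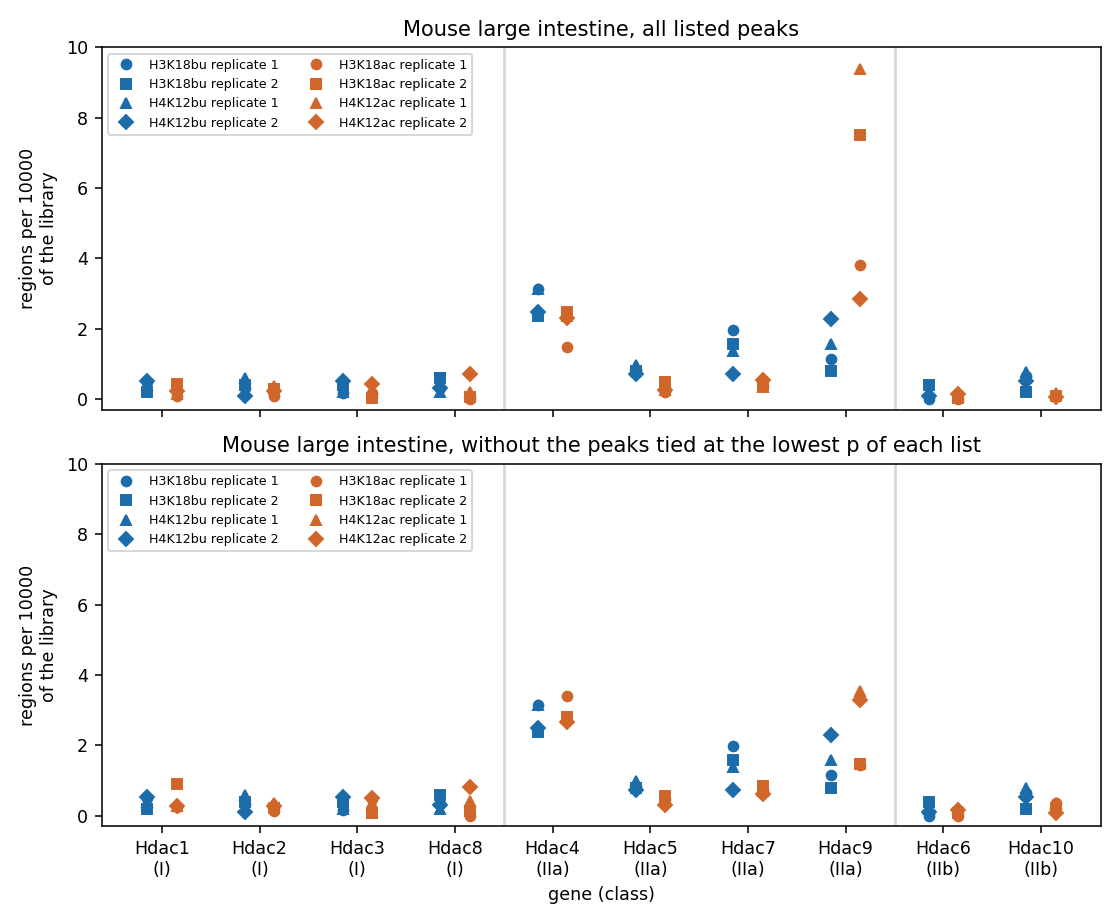
Regions per 10000 of the library (y axis) at each mouse deacetylase gene (x axis, class in brackets) in the 4 Kbu libraries (blue) and 4 Kac libraries (orange), with all listed peaks above and without the peaks tied at the lowest p below. The Hdac9 Kac points lie between 2.85 and 9.38 above and between 1.45 and 3.54 below, where that of H4K12ac replicate 2 is higher than above and the other 3 are lower, and at Hdac5 the colours stay apart in both panels. The lower panel leaves out the Kac peaks with a pileup of 1, while most Kbu peaks in it have that pileup.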

How the data were processed

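The 12 CUT&Tag libraries were analysed as peak lists that the authors deposited, called per library. Per the labels, the submitters' processing notes name bcl2fastq 2.17.1, cutadapt 1.9.1, Bowtie2 2.3.1 and MACS2 2.1.0, with builds hg38 and mm10, and per the paper's methods an ATAC-seq pipeline was run. Its handling of ends and duplicates is not given in the sources used here. Each deposited list gives a fold (ratio of signal to local background), a −log10 p and a −log10 q.

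Peaks overlapping by 1 bp were merged. A stretch holding a region of each replicate counted as found in both. Pileups were solved from the deposited fold and −log10 p within 0.01. Places followed GENCODE 44 and RefSeq GRCm38.p6. DiffBind, used in the study, needs reads and was not run. Shares were compared by a two-sided exact permutation test over 70 assignments of 4 Kbu and 4 Kac libraries, with Benjamini-Hochberg adjustment over all genes. The steps were tested on simulated data. Python 3.11.15, numpy 2.4.6, pandas 2.3.3, scipy 1.17.1 and matplotlib 3.10.9 were used.

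Genes were named by a rule in the lists drawn up by role, which leave out the cell type markers. These were, per CCD841 mark, the 3 genes with the highest weaker −log10 p at the start. Genes without a region common to both replicates (up to 5) were also named. HDAC11 was named outside this rule, after its values were seen, and the other genes of those lists are counted only. Some cell type markers were also named outside this rule. The members and lists were chosen with earlier results of these data known. Alternatives covered windows, flanks, q and pileup thresholds, equal numbers of regions, overlap, the replicate block and leaving out replicates. The sequence of 1 region is not reported here.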

Additional observations from a re-analysis of the deposited data

Results flagged for a closer look

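In 40 groups of 4 mouse libraries, a single library stood far from the other 3 in 2 cases by Dixon's test, and some such cases arise by chance. With all listed peaks, the Hdac4 share in H3K18ac replicate 1 was 1.47 regions per 10000, against 2.32 to 2.48 in the other Kac libraries. Without the tied peaks, the Hdac1 share in H3K18ac replicate 2 was 0.912, against 0.242 to 0.284. The Hdac4 library had 72.1% of its peaks tied at the lowest p, and the part of the ties in its value was not tested beyond the value of 3.39 without them.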

How the results depend on the processing

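In CCD841, H4K12bu start sites went from 2 to 1 at q 0.05, q 0.01 and canonical starts, with HDAC2 the member lost. Leaving out a replicate, so that regions of the other alone counted, gave 5 to 7 start sites for H3K18bu and 2 to 5 for H4K12bu, 182 to 211 regions for H3K18bu, and 281 to 311 for H4K12bu, which had 77 in both replicates at q 0.01. The class IIa median over that of all genes for H3K18bu, 1.92, became 2.03 with no flank, 1.80 with 10 kb, 1.80 in covered bases and 2.05 over every listed peak, and 1.92 to 2.02 without a replicate. For H4K12bu class IIa became 2.56 at q 0.01. Class IIb for H3K18bu, 0.357, became 0.615 with 10 kb, 0.649 in covered bases, 0.257 with no flank, 0.554 over every peak, 0.512 without replicate 1 and 0.196 without replicate 2, and for H4K12bu, 1.65, became 2.23 in covered bases and 2.68 over every peak. Class I for H4K12bu, 1.23, became 1.12 with 10 kb, 0.995 in covered bases, 1.10 over every peak, 1.32 at q 0.05, 1.12 at q 0.01 and 1.05 to 1.12 without a replicate. Class IIa thus stayed above the median of all genes for both marks under these settings. Class I for H4K12bu did not in covered bases, nor in regions of both replicates per kb, at 0.0421 against 0.0468 over all genes.

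In mouse, regions in both replicates fell to 0 for H3K18bu at q 0.05 and at a pileup of 2, to 0 and 1 for H4K12bu, to 2 and 10 for H3K18ac (10 without ties) and to 5 for H4K12ac at q 0.05. Single replicates gave 39 to 55, 48 to 80, 189 to 354 and 232 to 404. Members with all Kbu above all Kac numbered 0 with the 50645 strongest regions of each library, 0 at q 0.05, 0 at a pileup of 2, 1 without ties and 3 to 5 without a replicate, beside 0.631%, 0.167%, 1.99%, 3.37% and 25% to 26.6% of all genes. With 10 kb the 3 members above were Hdac7, Hdac10 and Hdac6, where Hdac5 lost its separation (exact permutation p 0.0571) and Hdac6 gained it (0.0286). Members below numbered 0, 2, 4 and 0 under the same first 4 settings, beside 0.426%, 10.4%, 25.4% and 1.88%. These were Hdac4 and Hdac9 at q 0.05 and Hdac1, Hdac3, Hdac5 and Hdac9 at a pileup of 2. Among the 50645 strongest regions, those of equal p were taken in chromosome order. The difference was negative at q 0.05 for Hdac1 (-0.0420), Hdac3 (-0.263), Hdac8 (-0.252), Hdac4 (-2.23), Hdac5 (-0.267), Hdac6 (-0.210) and Hdac10 (-0.0841), and at a pileup of 2 for Hdac1 (-0.427), Hdac3 (-0.353), Hdac8 (-0.344), Hdac4 (-1.61), Hdac5 (-0.463), Hdac6 (-0.109) and Hdac10 (-0.00954). At q 0.05 no Kbu library held a region at any member except Hdac2 and Hdac7, and at a pileup of 2 at any except Hdac2, Hdac4, Hdac7 and Hdac10. Elsewhere these differences, and all the members counted below under both settings, set the Kac libraries against 0 in every Kbu library and are no test. The difference also turned negative without ties for Hdac1 (-0.0251), Hdac3 (-0.0330) and Hdac4 (-0.117), with 10 kb for Hdac2 (-0.0140), with no flank for Hdac6 (-0.0419), and without replicate 1 for Hdac2 (-0.0190, and 0.225 without replicate 2).

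With the replicate block, which paired Kbu and Kac libraries of the same residue and number, 3 members lay above and 1 below, the smallest exact p was 0.125 and 0 genes passed adjustment. Replicate differences of Kbu and Kac correlated at -0.0189 for H3K18 and -0.00147 for H4K12 across genes, which showed no pairing by number. Those of H3K18ac and H4K12ac, which the tests took as separate libraries, correlated at -0.490. Since most Kbu peaks had a pileup of 1, the Kbu and Kac values do not settle whether the numbers tie the samples. Another 70 per-gene differences kept their sign. Most peaks of the mouse Kbu lists rest on 1 fragment, and low depth and low enrichment cannot be told apart from these lists.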
